A study of Mus musculus with 8 samples.

Results

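The genes examined here were 10 components of the growth hormone to STAT5 axis in liver, taken as the rows carrying the symbols Ghr, Stat5a, Stat5b, Igf1, Igfals, Socs2, Cish, Socs3, Bcl6 and Cux2 among 23699 annotated loci. Each symbol had 1 row in every library, and 9 of the 10 passed the expression filter used for testing; Cux2 did not. Polyadenylated RNA was sequenced from whole liver of male C57/BL6 mice, 8 weeks old, in 4 groups of 2 libraries. The groups were LMKO re-fed, control re-fed, LMKO fasted and control fasted, where LMKO stands for liver Med23 knockout. Med23 encodes a subunit of the Mediator complex, which links transcription factors to RNA polymerase II. Fasting lasted 24 h, and re-fed mice had food back for a further 24 h after the same fast. The promoter that drives the deletion and the exact genotype of the control mice are not given in the sources used here. Nor do they say that the 2 libraries of a group came from separate mice, so p-values measure the spread between libraries.

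Growth hormone binds its receptor on hepatocytes and activates the kinase JAK2, which phosphorylates STAT5. STAT5 dimers enter the nucleus, bind palindromic sites and switch on Igf1, Igfals and the feedback inhibitors Socs2 and Cish, while the repressor BCL6 competes for the same sites. In male rodents growth hormone is secreted in pulses, and these pulses sustain male-biased liver genes, among them the major urinary protein (Mup) genes. Fasting is known to reduce the response of liver to the hormone. The genes were compared between genotypes as a possible route to the lower Mup transcript levels of LMKO liver.

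Levels are in FPKM (fragment counts divided by transcript length in kilobases and by sequencing depth), so levels of different genes can be set side by side. Tests used limma on log2(FPKM + 1) over 10865 loci with at least 1 FPKM in at least 2 libraries. A locus was called at a Benjamini-Hochberg adjusted p under 0.05, and log2 fold changes are on that scale, which understates changes of low genes. FPKM sums were 511926 to 597650 in the re-fed and 453652 to 468218 in the fasted libraries, without overlap. Because FPKM is divided by depth, these sums do not measure library size. Each library had 10096 to 10403 loci at 1 FPKM or more. Med23 had 1.61 and 1.74 FPKM in LMKO re-fed livers against 2.86 and 2.33 FPKM in control re-fed livers, and 2.35 and 2.18 FPKM in LMKO fasted livers against 2.86 and 2.93 FPKM in control fasted livers. LMKO libraries were lower in both states, but the difference over both states did not pass the test (log2 fold change -0.34, SE 0.08, limma adjusted p = 0.173). Of the hepatocyte markers, 12 of 13 measured were tested, and Alb (albumin) stood at 0 in every library, which in an FPKM table can be a failed estimate. Because whole tissue was sequenced, fewer cells of a type and less RNA per cell cannot be told apart.

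No gene of the axis was called between genotypes. In re-fed livers 0 of 9 tested genes were called, where 0.101% of all tested loci were, and in fasted livers 0 of 9 were called, where 0.166% were. Over both feeding states the count was again 0 of 9, beside 0.313% of all loci. At an unadjusted limma p under 0.05 the axis gave 0 genes in the re-fed state, 1 in the fasted state (Igfals) and 0 over both states. The same threshold took in 11.7%, 12.4% and 15.1% of all tested loci in those comparisons. The median log2 fold change of the 9 genes was 0.12 in re-fed and 0.36 in fasted livers, where the medians of all tested loci were 0.01 and 0.08.

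**Figure D1:**
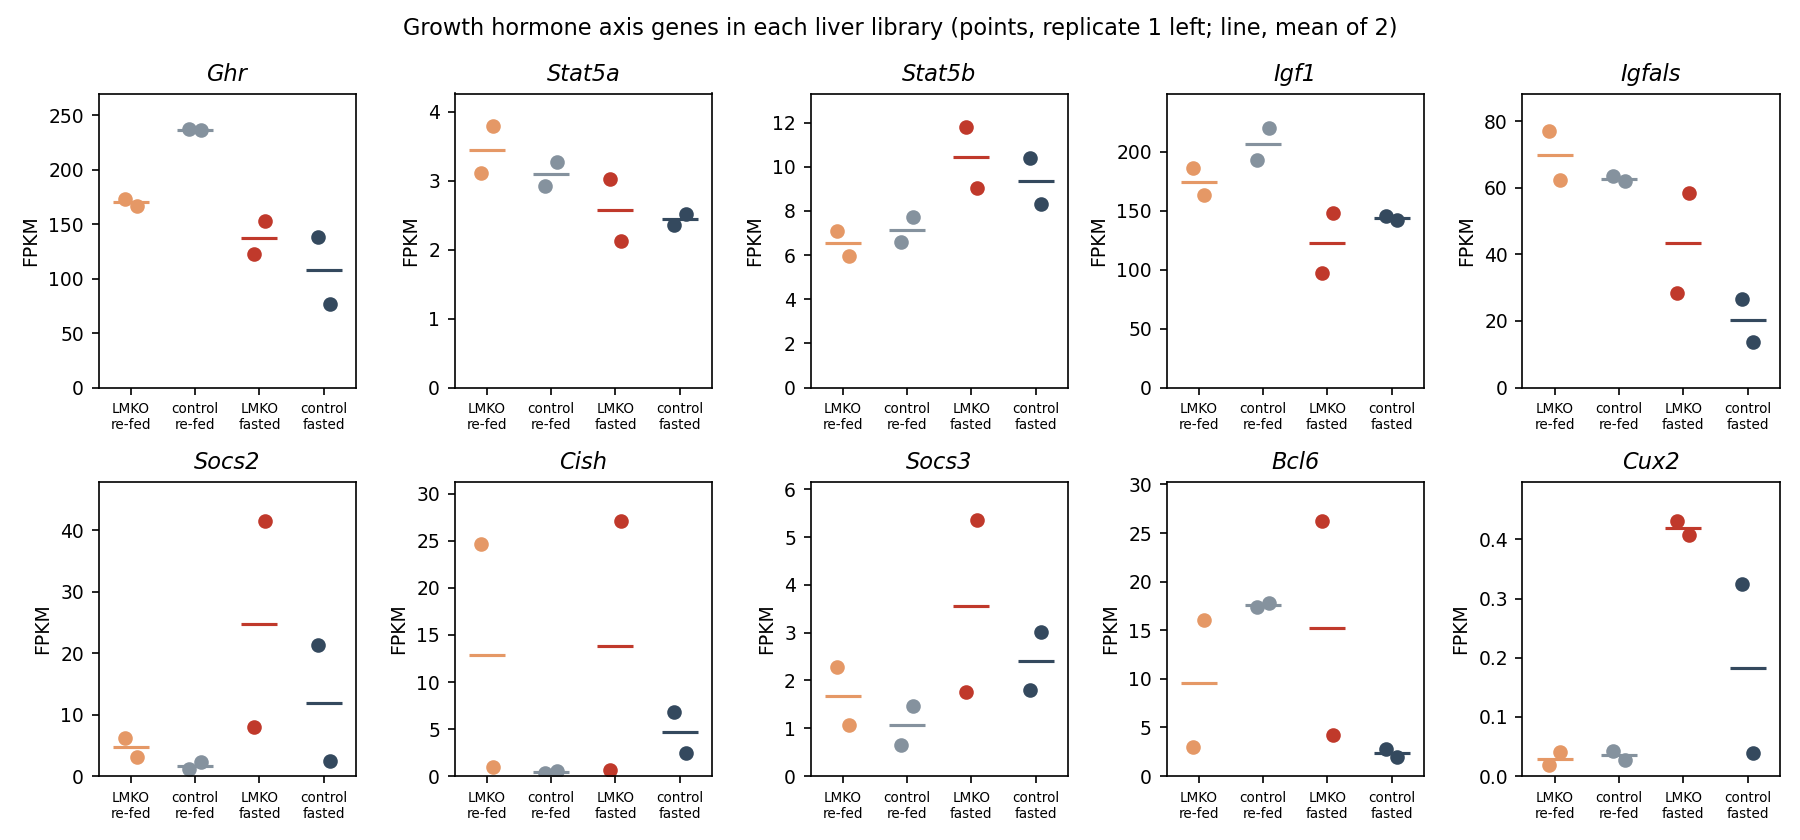
FPKM of the 10 axis genes (vertical axis, linear, from 0) in the 8 libraries, grouped as LMKO re-fed, control re-fed, LMKO fasted and control fasted; points are libraries and lines are the means of 2. Ghr and Igfals were highest in re-fed livers. In Cish and Bcl6 the 2 libraries of each LMKO group lay far apart, and in Socs2 those of both fasted groups did.

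The receptor gene Ghr (chr15:3267760-3533230, mm9), which encodes the growth hormone receptor, had 173 and 167 FPKM in LMKO re-fed livers, against 237 and 236 FPKM in control re-fed livers. Both LMKO libraries were below both control libraries. In the fasted state Ghr had 122 and 153 FPKM in LMKO livers against 138 and 77.0 FPKM in control livers, and there the groups overlapped. The log2 fold change of LMKO over control was -0.47 (SE 0.27, 95% interval -1.11 to 0.16, limma adjusted p = 0.526) re-fed and 0.40 (SE 0.27, interval -0.23 to 1.03, limma adjusted p = 0.573) fasted. The genotype effect of the re-fed state minus that of the fasted state was -0.88 (SE 0.38, interval -1.77 to 0.02), which did not pass the test (limma adjusted p = 0.54).

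Re-feeding raised Ghr in control livers. Its mean was 237 ± 0.948 FPKM in re-fed controls and 108 ± 43.5 FPKM in fasted controls (SD, n = 2 each), a log2 fold change of 1.19 (SE 0.27, limma adjusted p = 0.0176). In LMKO livers the means were 170 ± 4.39 FPKM re-fed and 138 ± 21.6 FPKM fasted (SD, n = 2 each), with no overlap. That difference, a log2 fold change of 0.31 (SE 0.27, 95% interval -0.32 to 0.95), did not pass the test (limma adjusted p = 0.376). Adh4, Sqrdl and Ugt2a3 were the genes whose centred values lay nearest to those of Ghr over the 8 libraries, with root-mean-square distances of 0.160 to 0.164 on the log2 scale. The values of Ghr lay 0.49 from their own mean by the same measure.

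Stat5a (chr11:100720665-100746483) and Stat5b (chr11:100642045-100711899) are neighbouring paralogs, and Stat5b encodes the form that carries most of the growth hormone response in liver. Reads in their similar stretches could have been split between them. Stat5b had 7.09 and 5.97 FPKM in LMKO re-fed livers and 6.59 and 7.72 FPKM in control re-fed livers, and these groups overlapped. It had 11.8 and 9.04 FPKM in LMKO fasted livers and 10.4 and 8.31 FPKM in control fasted livers, and again the groups overlapped. The genotype difference was narrow in both states, with log2 fold changes of -0.11 (95% interval -0.53 to 0.30) re-fed and 0.14 (interval -0.28 to 0.56) fasted (limma adjusted p = 0.821 and 0.774).

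Stat5b was the 1 gene of the axis called between re-fed and fasted LMKO livers, and it was lower re-fed. Its log2 fold change of re-fed over fasted was -0.59 (SE 0.17, 95% interval -1.01 to -0.18, limma adjusted p = 0.0353) in LMKO and -0.34 (SE 0.17, interval -0.76 to 0.08, limma adjusted p = 0.177) in control. The difference between those effects did not pass the test (log2 -0.25, SE 0.25, limma adjusted p = 0.743). Stat5a had 3.11 and 3.80 FPKM in LMKO re-fed, 2.93 and 3.27 FPKM in control re-fed, 3.02 and 2.13 FPKM in LMKO fasted and 2.36 and 2.52 FPKM in control fasted livers. None of its comparisons passed, and its genotype intervals, -0.25 to 0.48 re-fed and -0.32 to 0.41 fasted, were the narrowest of the axis. The ratio of Stat5b to Stat5a FPKM was 1.57 to 2.36 in the 4 re-fed libraries and 3.29 to 4.40 in the 4 fasted libraries, with no overlap.

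Igf1 (chr10:87321801-87399792) encodes insulin-like growth factor 1, the circulating mediator of growth hormone action. It had 186 and 163 FPKM in LMKO re-fed livers against 193 and 220 FPKM in control re-fed livers. In the fasted state it had 96.7 and 148 FPKM in LMKO livers against 146 and 142 FPKM in control livers. LMKO was below control without overlap in the re-fed state, while the single low library LMKO fasted 1 set the fasted difference. Over both states the log2 fold change was -0.25 (SE 0.15, 95% interval -0.60 to 0.10, limma adjusted p = 0.461). Re-fed over fasted, it was 0.54 in LMKO and 0.52 in control (limma adjusted p = 0.0797 and 0.0977), and neither passed the test.

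Igfals (chr17:25015715-25018953) encodes the acid-labile subunit, which holds IGF-1 in a stable serum complex. It had 77.1 and 62.3 FPKM in LMKO re-fed livers against 63.6 and 61.9 FPKM in control re-fed livers, and 28.5 and 58.5 FPKM in LMKO fasted livers against 26.5 and 13.8 FPKM in control fasted livers. LMKO lay above control without overlap in the fasted state, though LMKO fasted 1 and control fasted 1 were close. The fasted log2 fold change of 1.05 (SE 0.39, 95% interval 0.13 to 1.98) had an unadjusted p of 0.0316 and a limma adjusted p of 0.352. In the re-fed state the value was 0.14 (SE 0.39, interval -0.79 to 1.07, limma adjusted p = 0.908).

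Re-feeding raised Igfals in control livers, to a mean of 62.8 ± 1.19 FPKM re-fed beside 20.2 ± 8.99 FPKM fasted (SD, n = 2 each). The log2 fold change was 1.66 (SE 0.39, 95% interval 0.73 to 2.59, limma adjusted p = 0.0202). In LMKO livers it was 0.75 (SE 0.39, interval -0.18 to 1.68, limma adjusted p = 0.169), and the LMKO effect minus the control effect was -0.91 (SE 0.55), which did not pass (limma adjusted p = 0.621). The genes nearest to Igfals over the 8 libraries were Cyp2c44, Lin7a and Pion, at log2 distances of 0.227 to 0.305.

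**Figure D2:**
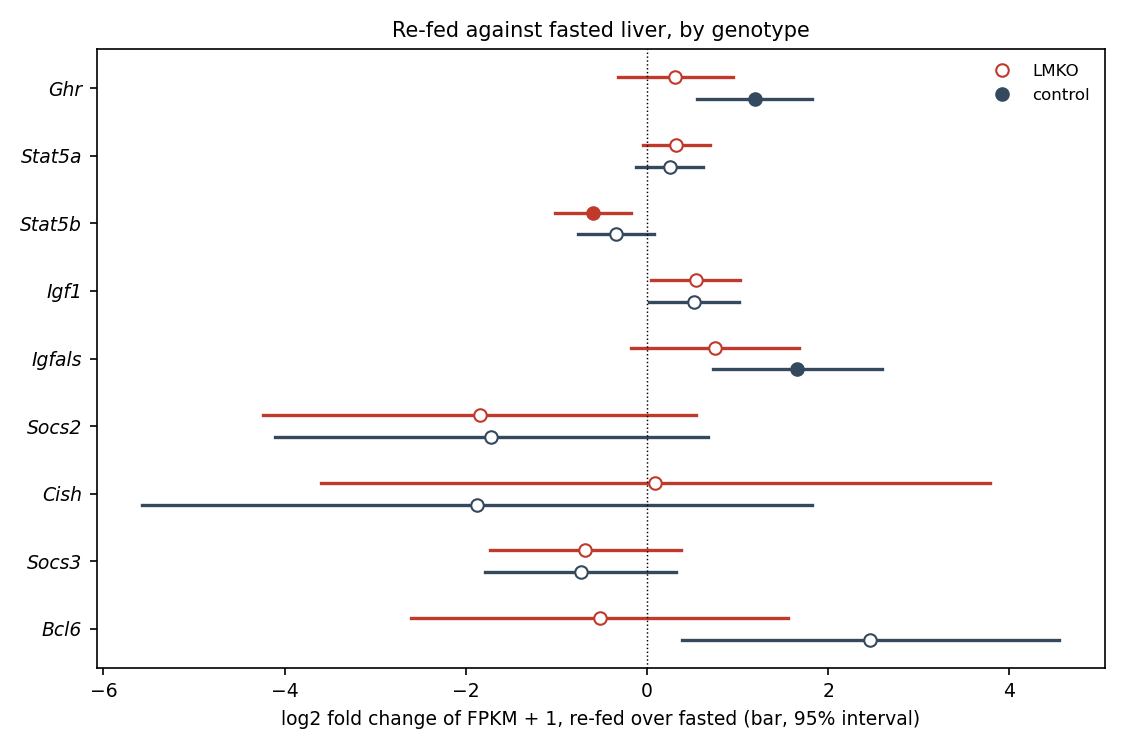
Log2 fold change of FPKM + 1, re-fed over fasted (horizontal axis), for the 9 tested axis genes in LMKO (upper of each pair) and control (lower) livers; bars are 95% intervals from limma, and filled points had an adjusted p under 0.05. Ghr and Igfals were called in control and Stat5b in LMKO livers.

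Counted over the axis, re-feeding called 1 of 9 genes in LMKO livers, where 39.5% of all tested loci were called, and 2 of 9 in control livers, where 33.2% were. The single LMKO call was lower re-fed (background 16.3% lower), and both control calls were higher re-fed (background 22.8% higher). With quantile normalization neither control call passed (limma adjusted p = 0.0554 for Ghr and 0.0508 for Igfals), and with the transcript-length trend removed Stat5b had -0.38 in LMKO (limma adjusted p = 0.168). The 2 control calls depended on single libraries. Without control re-fed 1 or without control re-fed 2 neither Ghr (limma adjusted p = 0.0634 and 0.0731) nor Igfals (0.0746 and 0.0812) passed, without control fasted 2 only Ghr passed (Igfals 0.0934), and without LMKO fasted 1 or without LMKO fasted 2 Bcl6 and Igf1 passed as well. For Stat5b, the call was lost without LMKO fasted 1, LMKO re-fed 1 or LMKO re-fed 2 (limma adjusted p = 0.165, 0.072 and 0.164). Markers of other liver cells also differed between feeding states. The sum of 12 sinusoidal endothelium markers was 68.1 to 93.2 FPKM in LMKO re-fed and 81.4 to 94.7 in control re-fed livers. Fasted, it was 149 to 157 in LMKO and 114 to 119 in control livers. Re-feeding called 10 of them lower in LMKO and 7 lower in control, beside 16.3% and 10.5% of all tested loci. The sum of 11 Kupffer cell and macrophage markers was 67.5 to 102 FPKM in LMKO re-fed and 110 to 149 in control re-fed livers. Fasted, it was 142 to 185 in LMKO and 134 to 158 in control livers. Of these 11, re-feeding called 6 lower in LMKO and 1 lower in control, beside the same shares of all loci. No marker of either list was listed at 0 in all libraries, and their part in the re-feeding results was not tested.

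Of the feedback inhibitors, Socs2 (chr10:94874124-94879491) encodes a suppressor of cytokine signalling whose loss gives oversized mice. It had 6.27 and 3.07 FPKM in LMKO re-fed livers against 1.15 and 2.28 FPKM in control re-fed livers. In the fasted state it had 8.03 and 41.5 FPKM in LMKO livers against 21.4 and 2.41 FPKM in control livers. LMKO was above control without overlap in the re-fed state, and within the fasted groups the libraries differed 5.17-fold in LMKO and 8.87-fold in control. The log2 fold change was 1.04 (95% interval -1.35 to 3.42) re-fed and 1.17 (interval -1.22 to 3.56) fasted, and neither passed (limma adjusted p = 0.703 and 0.666).

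Cish (chr9:107199020-107204292), an early transcript that STAT5 induces within a growth hormone pulse, had 24.7 and 0.979 FPKM in LMKO re-fed livers, against 0.279 and 0.569 FPKM in control re-fed livers. It had 0.593 and 27.1 FPKM in LMKO fasted livers, against 6.79 and 2.48 FPKM in control fasted livers. The libraries of a group differed 25.3-fold in LMKO re-fed, 2.04-fold in control re-fed, 45.7-fold in LMKO fasted and 2.74-fold in control fasted livers. The genotype log2 fold changes had intervals several units wide, 2.33 (95% interval -1.36 to 6.03) re-fed and 0.36 (interval -3.33 to 4.06) fasted (limma adjusted p = 0.588 and 0.942).

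Socs3 (chr11:117827401-117830680), a suppressor that also answers to interleukin 6 and leptin, was low throughout. It had 2.28 and 1.07 FPKM in LMKO re-fed, 0.649 and 1.47 FPKM in control re-fed, 1.75 and 5.36 FPKM in LMKO fasted and 1.80 and 3.01 FPKM in control fasted livers. The groups of either genotype comparison overlapped, and the log2 fold changes of 0.37 re-fed and 0.32 fasted had limma adjusted p of 0.763 and 0.799.

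Bcl6 (chr16:23965138-23988698), the repressor that competes with STAT5, differed in sign between genotypes in the 2 feeding states, though neither difference passed the test. It had 3.03 and 16.1 FPKM in LMKO re-fed livers against 17.4 and 17.8 FPKM in control re-fed livers, and 26.3 and 4.21 FPKM in LMKO fasted livers against 2.79 and 1.98 FPKM in control fasted livers. Both LMKO libraries were below both control libraries when re-fed and above both when fasted. The log2 fold change of LMKO over control was -1.16 (SE 0.87, 95% interval -3.24 to 0.92) re-fed and 1.83 (SE 0.87, interval -0.25 to 3.91) fasted, and neither passed (limma adjusted p = 0.629 and 0.46). The re-fed effect minus the fasted effect was -2.99 (SE 1.23, interval -5.93 to -0.05), with an unadjusted p of 0.0472 and a limma adjusted p of 0.53. No axis gene was called in that interaction, beside 0.0368% of all loci, and at the unadjusted threshold Bcl6 was the only one, beside 9.35%.

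Between feeding states the Bcl6 groups did not overlap in controls. The mean was 17.6 ± 0.296 FPKM in re-fed controls and 2.39 ± 0.575 FPKM in fasted controls (SD, n = 2 each). The log2 fold change of 2.47 (SE 0.87, 95% interval 0.39 to 4.55) had a limma adjusted p of 0.0696. In LMKO livers the 2 groups overlapped, at 9.55 ± 9.21 FPKM re-fed and 15.3 ± 15.6 FPKM fasted (SD, n = 2 each).

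Cux2 (chr5:122310225-122497834) encodes a repressor of male-biased genes that is enriched in female liver. It stayed below 0.5 FPKM in all libraries and was not tested. It had 0.0179 and 0.0401 FPKM in LMKO re-fed, 0.0431 and 0.0267 FPKM in control re-fed, 0.431 and 0.407 FPKM in LMKO fasted and 0.325 and 0.0392 FPKM in control fasted livers. The highest values were therefore those of both LMKO fasted libraries and of control fasted 1.

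**Figure D3:**
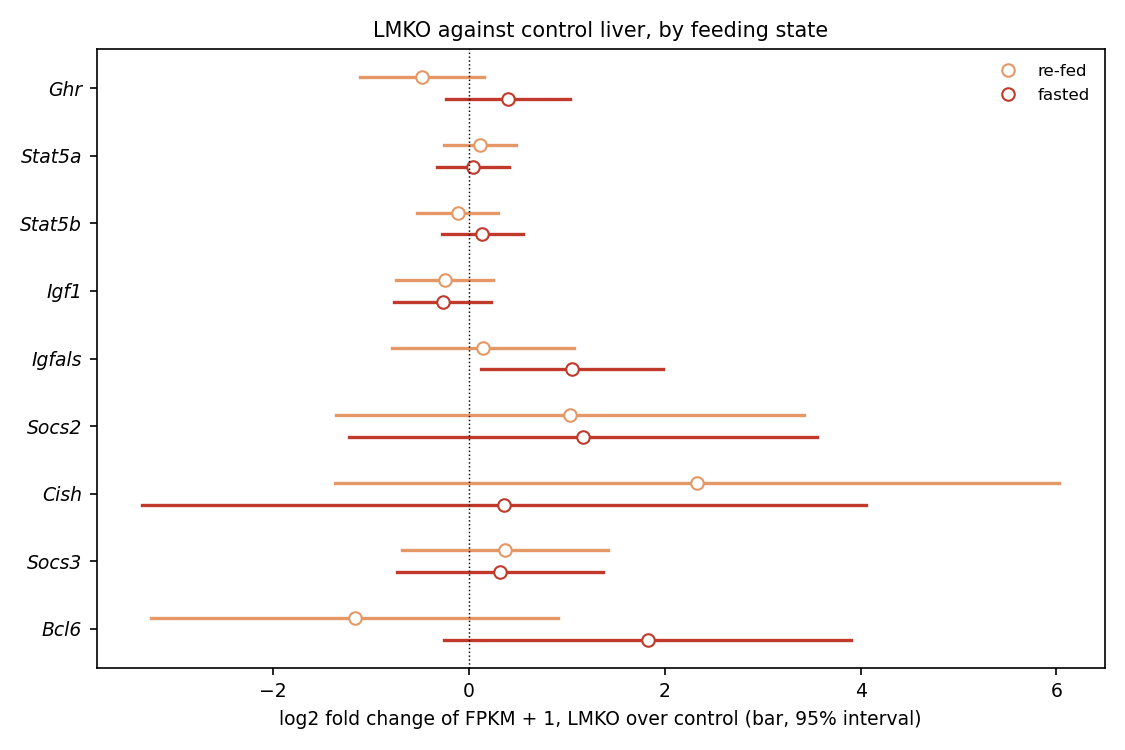
Log2 fold change of FPKM + 1, LMKO over control (horizontal axis), for the 9 tested axis genes in re-fed (upper of each pair) and fasted (lower) livers; bars are 95% intervals from limma, and open points did not reach an adjusted p of 0.05. The bars of Cish, Socs2 and Bcl6 were the widest, and Bcl6 lay at -1.16 re-fed and 1.83 fasted.

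Groups without overlap between genotypes were common among all loci. In the re-fed state 5 of 9 tested axis genes had no overlap, beside 45% of all loci, with Socs2 and Cish higher and Ghr, Igf1 and Bcl6 lower in LMKO. In the fasted state 2 of 9 had none, beside 45.8% of all loci, and both, Igfals and Bcl6, were higher in LMKO.

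The axis held some of the most variable transcripts between libraries of the same group. The within-group SD of log2(FPKM + 1) was 2.01 for Cish, 1.30 for Socs2 and 1.13 for Bcl6, against a median of 0.154 over all tested loci. These were ranks 54, 90 and 112 from the largest of 10865. All 9 tested axis genes lay above the median, down to Stat5a at 0.158.

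The values of Cish were set beside those of all other genes. Onecut1, which encodes the liver transcription factor HNF6, was the gene nearest to Cish of 7317 candidates over the 8 libraries, at a log2 distance of 0.898, where Cish lay 1.71 from its own mean. It had 26.5 and 6.16 FPKM in LMKO re-fed, 8.09 and 5.87 FPKM in control re-fed, 3.89 and 33.3 FPKM in LMKO fasted and 19.9 and 4.13 FPKM in control fasted livers. Cish and Onecut1 were thus both highest in LMKO fasted 2, LMKO re-fed 1 and control fasted 1. They put the 2 libraries of a group in the same order in 3 of 4 groups and in the opposite order in control re-fed livers. Of the other tested loci, 19.9% shared the order of Cish in 3 of 4 groups. Onecut1 was picked by its nearness to Cish in these same values, so the shared peaks and order are not separate evidence. Serpina4-ps1 and Gadd45g were next, at 0.963 and 1.064.

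Socs2 put the 2 libraries of a group in the same order as Cish in 4 of 4 groups, as did Igf1, and 4.53% of the other tested loci did so. The genes nearest to Socs2 were Abhd1, Lyve1 (a receptor of sinusoidal endothelium) and Foxq1, at 0.863 to 0.881, and Onecut1 was eighth at 0.981. Bcl6 ran against Cish within both LMKO groups and with it within both control groups. Its nearest genes were Rnf43, Gadd45a and Snord22, at 0.671 to 0.733, while Onecut1 ranked 7172. Those nearest to Socs3 were Apobec1, Arhgef37 and Hsd17b11, at 0.279 to 0.311.

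Lymphocytes also transcribe Cish, Socs2 and Bcl6, so their markers were set beside these swings. The summed FPKM of 10 T and NK cell markers was 2.58 to 2.63 in the LMKO re-fed and 2.96 to 3.43 in the LMKO fasted libraries, the groups in which Cish differed 25.3-fold and 45.7-fold. In the control libraries it was 1.74 to 6.09 re-fed and 1.78 to 2.46 fasted. Of 6 B cell markers the sum was 2.86 to 6.24 in LMKO re-fed, 2.85 to 3.10 in control re-fed, 2.01 to 2.20 in LMKO fasted and 0.51 to 0.52 in control fasted livers. Fasted, the B cell sum and Bcl6 were both higher in LMKO than in control livers without overlap. Re-fed, the B cell sums of the genotypes overlapped, while Bcl6 was lower in LMKO. Within LMKO fasted livers Bcl6 differed 6.24-fold, where the B cell sums were 2.01 to 2.20. Within LMKO re-fed livers Bcl6 differed 5.29-fold, where the B cell sums were 2.86 to 6.24. There Bcl6 had 3.03 and 16.1 FPKM, and the B cell marker Blnk had 1.32 and 4.98 FPKM, higher in the same library. Only 1 of the 6 B cell markers and 1 of the 10 T and NK cell markers passed the expression filter. Striated muscle transcripts stood apart in control re-fed 2, where the sum of 6 markers was 34.6 FPKM against at most 2.82 in the other libraries. The part of lymphocytes and of muscle in the values of the axis genes was not tested.

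**Figure D4:**
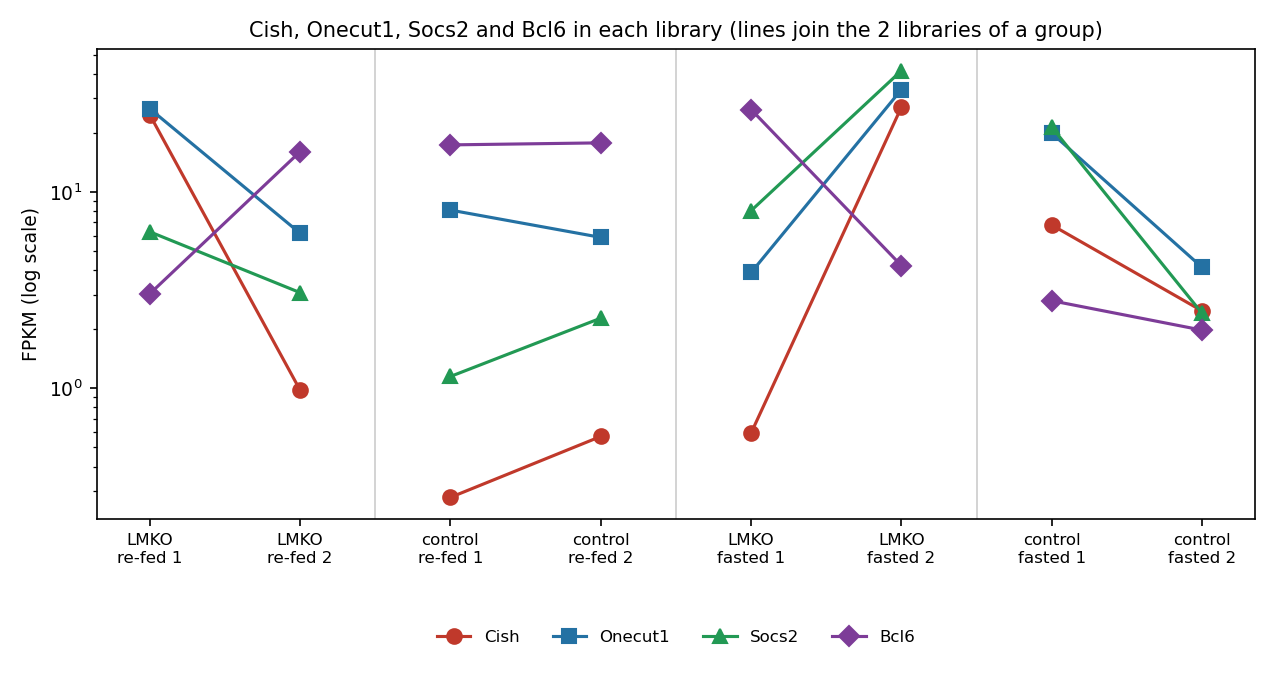
FPKM (vertical axis, log scale) of Cish, Onecut1, Socs2 and Bcl6 in each of the 8 libraries (horizontal axis); lines join the 2 libraries of a group. Onecut1 is shown because it was the gene nearest to Cish in these same libraries. Cish and Onecut1 peak together in LMKO re-fed 1, LMKO fasted 2 and control fasted 1, and in both LMKO groups Bcl6 is low where Cish is high.

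STAT5 dimers bind the palindrome TTCNNNGAA, and its matches near the annotated starts of the axis genes are printed because those genes answer to STAT5 in different ways. RefSeq windows (GRCm38.p6, 250 bases before to 50 after each start, both strands, which are the same for a palindrome) were matched for 9 of the 10 genes, in 16 windows. They held a match in 6 windows of 4 genes: Cish, Bcl6, Igfals and Socs3. Of 32851 windows of the same length, 8.3% held at least 1 match, 0.457% at least 2 and 0.0335% at least 3. The stretches below run 5′ to 3′ on the transcribed strand, with the matches in capitals.
Cish, chr9:107296639-107296688 (+): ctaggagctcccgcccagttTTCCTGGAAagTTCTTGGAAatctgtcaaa
Bcl6 start 2, chr16:23981343-23981471 (-): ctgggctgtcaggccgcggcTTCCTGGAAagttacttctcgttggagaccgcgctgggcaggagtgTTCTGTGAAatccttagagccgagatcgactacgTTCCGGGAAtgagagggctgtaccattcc
Igfals start 2, chr17:24878153-24878201 (+): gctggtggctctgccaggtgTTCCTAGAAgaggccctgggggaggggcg
Socs3, chr11:117969492-117969540 (-): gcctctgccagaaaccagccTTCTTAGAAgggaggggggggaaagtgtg

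Cish held 2 matches just after its start and Bcl6 held 3 before its start 2, beginning at -168, -122 and -88. Bcl6 start 1 had 1 match at -118, Igfals had 1 at each of 2 starts (-236 and -58), and Socs3 had 1 at -154. The windows of Ghr, Igf1, Stat5a, Stat5b and Cux2 held none. A match is a string of letters and not evidence of binding in these livers.

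**Figure D5:**
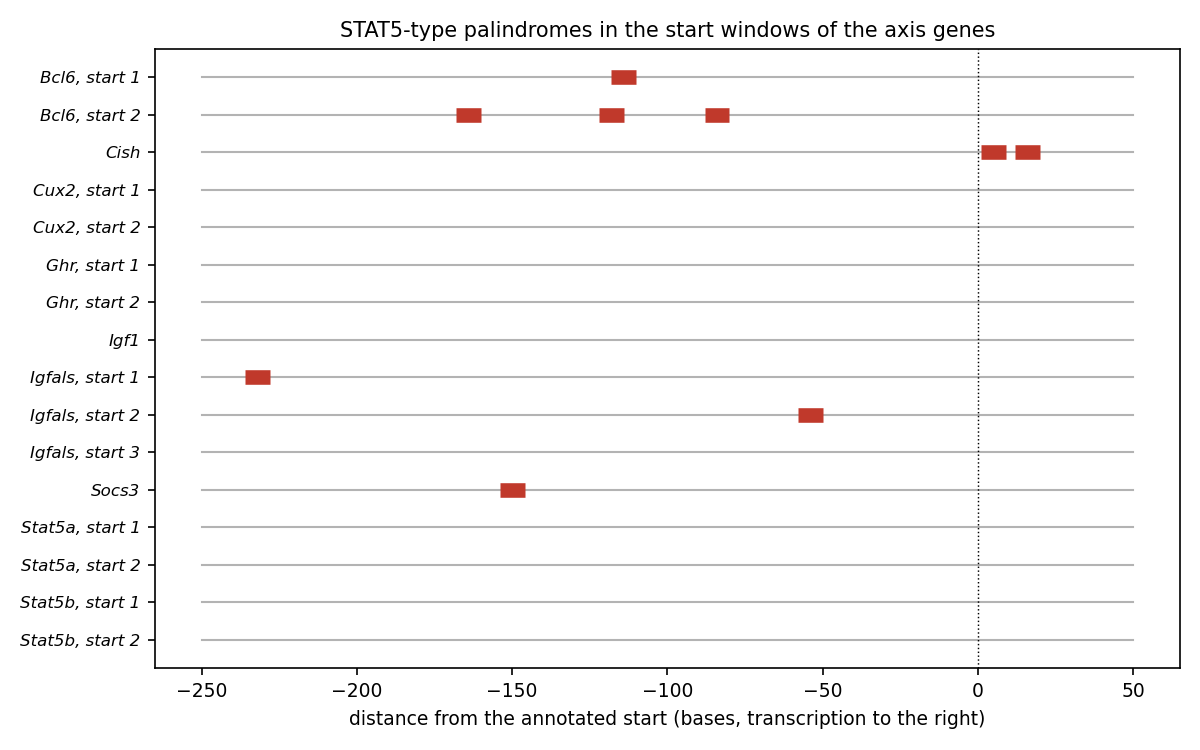
Positions of TTCNNNGAA matches (boxes) in bases from the annotated start (horizontal axis, transcription to the right) in the 16 windows of 9 axis genes. Cish has 2 matches after its start and Bcl6 start 2 has 3 before it.

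Beyond the 10 genes, 15 genes act close to the growth hormone receptor, among them JAK2 and phosphatases, and 14 were tested. No genotype comparison called any. Re-feeding called 4 lower in LMKO, beside 16.3% of all tested loci, and 1 higher in control livers, beside 22.8%. Jak2, the receptor's kinase, had 2.56 and 2.15 FPKM in LMKO re-fed against 4.49 and 4.37 FPKM in LMKO fasted livers (log2 fold change -0.70, SE 0.17, limma adjusted p = 0.0204). In control livers its value was -0.12 (limma adjusted p = 0.635). The LMKO effect minus the control effect was -0.58 for Jak2 (limma adjusted p = 0.535). None of the 14 genes was called in that comparison of effects. The other genes that fell in LMKO were Sirpa (-0.78, limma adjusted p = 0.00979), Socs7 (-0.63, 0.0142) and Cbl (-0.55, 0.0226). Sirpa kept its call in 19 of 21 alternative settings and Jak2 in 14 of 20, and each LMKO library, when left out, ended the Jak2 call. Socs7 and Cbl each kept theirs in 15 of 20, with log2 values from -0.90 to -0.27 for Socs7 and from -1.12 to -0.04 for Cbl. The gene called higher in control, Shc1, an adaptor named after its value was seen, rose by 0.31 on the log2 scale (limma adjusted p = 0.0487). The Shc1 call was kept in 6 of 21 settings.

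Of 13 IGF carriers and receptors, 7 were tested, and re-feeding called 5 lower in LMKO and 2 lower in control livers, beside 16.3% and 10.5% of all tested loci. Igfbp1, an IGF-binding protein that insulin suppresses, had 1.25 and 0.471 FPKM in LMKO re-fed, 0.991 and 1.65 FPKM in control re-fed, 71.5 and 22.4 FPKM in LMKO fasted and 216 and 624 FPKM in control fasted livers. Re-feeding lowered it in both genotypes, with log2 fold changes of -4.50 in LMKO (limma adjusted p = 0.00356) and -7.33 in control (limma adjusted p = 0.00167). The fasted LMKO libraries lay below both fasted control libraries, but the difference did not pass (log2 fold change -3.16, SE 0.65, limma adjusted p = 0.153). Igfbp3, which carries most IGF-1 in serum, fell in LMKO (-1.51, limma adjusted p = 0.0197), with -0.66 in control (limma adjusted p = 0.216). The LMKO effect minus the control effect was -0.86 for Igfbp3 (limma adjusted p = 0.627). None of the 7 genes was called in that comparison of effects. Igfbp7 and Igf2r, the last named after its value was seen, fell in LMKO by 0.53 and 0.62 (limma adjusted p = 0.0313 and 0.0328). Igfbp2 fell by 1.39 in LMKO and by 1.47 in control (limma adjusted p = 0.006 and 0.0067).

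Among 15 JAK-STAT genes and cytokine receptors that share Socs3 as an inhibitor, 14 were tested, and re-feeding called 8 lower in LMKO and 5 lower in control livers, beside 16.3% and 10.5% of all tested loci. Il6ra, the interleukin 6 receptor, fell by 2.98 in LMKO and 2.04 in control (log2, limma adjusted p = 0.00217 and 0.0079). The leptin receptor gene Lepr had 20.8 and 10.6 FPKM in LMKO fasted and 11.0 and 55.6 FPKM in control fasted livers and was under 0.72 FPKM in every re-fed library.

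All 16 transcription factors listed as acting with STAT5 on growth hormone-regulated genes were tested, and no genotype comparison called one. Re-feeding called 7 lower in LMKO (16.3% of all tested loci), and 4 lower (10.5%) and 1 higher (22.8%) in control livers. Cebpb, which binds beside STAT5 at many liver genes, had 13.3 and 15.0 FPKM in LMKO fasted against 30.9 and 42.9 FPKM in control fasted livers (log2 fold change -1.31, SE 0.21, limma adjusted p = 0.0979). Re-feeding lowered it in control (-1.28, limma adjusted p = 0.00691), while in LMKO the value was -0.23 (limma adjusted p = 0.401). The glucocorticoid receptor gene Nr3c1, a STAT5 partner, fell in LMKO (-0.81, limma adjusted p = 0.00965), with 0.07 in control (limma adjusted p = 0.777). The LMKO effect minus the control effect was 1.05 for Cebpb and -0.87 for Nr3c1 (limma adjusted p = 0.507 and 0.485). None of the 16 genes was called in that comparison of effects. Rora and Tox fell in both genotypes, Rora by 1.92 in LMKO and 1.28 in control (limma adjusted p = 0.00628 and 0.0278). The gene called higher in control was Cebpa, named after its value was seen (0.88, limma adjusted p = 0.0257).

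Of 10 fasting signals linked to growth hormone resistance, re-feeding lowered 7 in LMKO (16.3% of all tested loci) and 5 in control livers (10.5%), and the genotype comparisons called none. Fgf21, a fasting hormone that blunts STAT5 signalling in mouse liver, had 0.554 and 1.18 FPKM in LMKO re-fed, 0.327 and 0.354 FPKM in control re-fed, 21.6 and 6.40 FPKM in LMKO fasted and 35.0 and 14.6 FPKM in control fasted livers. It fell by 2.81 in LMKO and by 4.15 in control (log2, limma adjusted p = 0.0103 and 0.00434). Cpt1a, the carnitine palmitoyltransferase of fat oxidation, fell by 1.77 and 2.12, and Ppara, the fasting-activated nuclear receptor gene, by 1.82 and 1.04, in LMKO and control. The deacetylase gene Sirt1 fell by 0.46 and 0.44 (limma adjusted p = 0.0122 and 0.0182).

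The summed major urinary protein transcripts were lower in LMKO libraries than in control libraries in both states, without overlap. The sum over 23 loci was 7169 and 6289 FPKM in LMKO re-fed against 12871 and 15286 FPKM in control re-fed livers. In the fasted state it was 5097 and 6310 FPKM in LMKO against 15599 and 19793 FPKM in control livers. The log2 ratio was -1.065 re-fed and -1.634 fasted, and an exact two-sided permutation test of the genotype labels within feeding states gave p = 0.0556, the smallest its 36 arrangements allow. Of 16 tested Mup loci, 6 were called lower in each feeding state and 9 over both, and none higher, beside 0.0736% (re-fed), 0.147% (fasted) and 0.221% (both) of all tested loci called lower. Mup20 was the 1 tested locus with a positive value, in the re-fed state (log2 fold change 0.37, limma adjusted p = 0.681). Mup7 had 27.4 and 50.5 FPKM in LMKO re-fed against 1600.1 and 1842 FPKM in control re-fed livers. Mup genes are near-identical copies, so reads could have been shared among them.

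A list of male-biased genes that depend on growth hormone pulses, which holds some Mup loci, was also tested. Of 20 listed, 19 were tested, and 14 had a negative log2 fold change of LMKO over control in each state. The median was -0.265 re-fed, -0.453 fasted and -0.52 over both states, beside 0.008, 0.079 and 0.04 for all loci. Mup3, Mup20 and Mup21 belong to both lists and enter these counts and medians, with values over both states of -0.98, -0.81 and -1.90. The male-biased list is therefore not separate from the Mup loci. The test called 1 over both states, Selenbp2, which had 117 and 96.4 FPKM in LMKO re-fed against 653 and 533 FPKM in control re-fed livers, and 1.75 and 2.89 FPKM in LMKO fasted against 139 and 34.5 FPKM in control fasted livers (log2 fold change -3.45, limma adjusted p = 0.0339). Selenbp2 passed in 10 of 20 alternative settings and not when either library of LMKO re-fed, control re-fed or LMKO fasted was left out (limma adjusted p up to 0.176). Re-feeding called 7 male-biased genes higher in LMKO livers (23.2% of all tested loci), and 7 higher (22.8%) and 2 lower (10.5%) in control livers. Gstp1, a glutathione transferase gene, rose by 2.03 in LMKO and 1.66 in control (log2, limma adjusted p = 0.00245 and 0.00585), and Nudt7 rose by 1.85 and 2.20.

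Of 22 genes listed as female-biased 11 were tested, with none called between genotypes. All mice were male, so sex bias was not measured here. The median log2 fold change of LMKO over control was -0.15 re-fed (3 positive, 8 negative) and 0.38 fasted (8 positive, 3 negative). Over both states it was 0.22 (7 positive, 4 negative), beside 0.043 for all loci. Re-feeding called 2 higher and 4 lower in each genotype, beside 23.2% higher and 16.3% lower of all tested loci in LMKO and 22.8% and 10.5% in control. Fmo2, a flavin monooxygenase gene, fell by 2.35 in LMKO and 2.61 in control (log2, limma adjusted p = 0.00413 and 0.00428). Gstp2 rose by 1.51 and 1.36 (limma adjusted p = 0.00503 and 0.00908). It lies beside Gstp1, of the male-biased list, on chromosome 19, and both rose, so its place in the female-biased list is uncertain. Cyp2a22 had 6.03 and 11.2 FPKM in LMKO re-fed against 2.49 and 1.93 FPKM in control re-fed livers, a genotype difference that did not pass (log2 fold change 1.54, limma adjusted p = 0.184).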

How the data were processed

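FPKM values per locus, 1 table per library, were deposited by the authors; the submitters' processing notes name TopHat 1.4.1, SAMtools, Cufflinks 2.0.2, Cuffdiff 2.0.2 and the mm9 build. Fragment totals are not given in the sources used here, so no counting interval is given; ratios among the lowest values placed library depths within 0.896 to 1.04 of LMKO re-fed 1, with 10.2% to 12.5% of low loci at the common ratio. File starts count from 0 and were printed plus 1.

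log2(FPKM + 1) was fitted with limma 3.58.1 (R 4.3.3; 4 group means, variance trend) over 10865 loci at 1 FPKM or more in at least 2 libraries. Residual degrees of freedom were 4, to which limma added a prior of 2.74. P-values and 95% intervals used the total of 6.74. P-values were adjusted over all loci. Up to 4 genes per list were named by smallest limma p, and genes nearest to a member by root-mean-square distance of centred log2 values among loci reaching 5 FPKM. Members and lists were chosen with earlier results of these data known. Scaling, pseudocount, filter, variance model, transcript length and left-out libraries were varied. One listed gene is not reported here.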

Additional observations from a re-analysis of the deposited data

Results flagged for a closer look

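Bcl6 was flagged because both LMKO libraries lay below both control libraries in re-fed livers and above both in fasted livers. The share of all loci with such a reversal was not counted. The re-fed genotype effect minus the fasted one was -2.99 on the log2 scale (SE 1.23). Its unadjusted p was 0.0472 and its limma adjusted p 0.53, so the difference did not pass over all loci. Within LMKO the 2 libraries of a group differed 5.29-fold re-fed and 6.24-fold fasted. The direction was not particular to Bcl6. The re-fed effect minus the fasted effect was also negative for 12 of 12 tested sinusoidal endothelium markers and 11 of 11 Kupffer cell and macrophage markers. It was negative for 12 of 12 stellate cell and fibroblast markers too, with none of these markers called. For all tested loci the median of that difference was -0.062, and the share with a negative value was not counted. Of the 12 endothelium markers, 8 were higher in LMKO fasted and 9 lower in LMKO re-fed without overlap. Of all tested loci, 45.8% fasted and 45% re-fed had no overlap, counted in either direction.

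Mup20, which encodes the male pheromone darcin and was singled out after its values were seen, went opposite ways after re-feeding in the genotypes. It had 1820 and 1927 FPKM in LMKO re-fed, 1641 and 1278 FPKM in control re-fed, 1101 and 534 FPKM in LMKO fasted and 2741 and 3400 FPKM in control fasted livers. Re-fed over fasted, its log2 fold change was 1.29 in LMKO (limma adjusted p = 0.0226) and -1.08 in control (limma adjusted p = 0.0466), calls kept in 14 and 12 of 21 alternatives. The LMKO effect minus the control effect was 2.36 (SE 0.47), with an unadjusted p of 0.00167 and a limma adjusted p of 0.451, so it did not pass over all loci. The same difference sets the genotypes apart by feeding state, with LMKO above both control libraries re-fed and below both fasted.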

How the results depend on the processing

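Each result was recomputed under up to 21 alternatives. None called an axis gene between genotypes, in either state or over both. The count of axis genes called after re-feeding in control livers (2) was 0 with quantile normalization, 1 with the transcript-length trend removed and a replicate block, 3 (Igfals, Bcl6 and Cish) when only the 4 control libraries were fitted, and 0 to 4 when 1 library was left out. In LMKO livers the count (1) was 0 when only the 4 LMKO libraries were fitted, and 0 to 2 when 1 library was left out. Fitting only the 4 control libraries ended the Ghr call. Stat5b also lost its call with no filter and with the length trend removed. Small genotype differences turned sign. Stat5a fasted was -0.026 with median-ratio scaling, -0.016 with quantile normalization and -0.021 with the length trend removed, with or without the block. With quantile normalization, re-fed over fasted in LMKO was -0.146 for Ghr and -0.035 for Cish. With 1 library left out, the fasted genotype value ran from -0.019 to 0.82 for Ghr, -0.568 to 0.04 for Igf1, -0.191 to 2.524 for Socs2, -0.285 to 0.924 for Socs3, -1.708 to 2.432 for Cish, -0.137 to 0.226 for Stat5a and -0.036 to 0.316 for Stat5b; the re-fed value for Igfals from -0.01 to 0.293; and LMKO re-feeding from -1.977 to 2.163 for Cish and -1.718 to 0.67 for Bcl6. Causes were not tested. Same-numbered libraries did not deviate together (correlations -0.084 to -0.008), and the replicate block alone left the counts of axis genes at 0 between genotypes, 2 in control and 1 in LMKO re-feeding. Median-ratio scaling moved the median of all loci in control re-feeding to -0.004, beside 0.125; Ghr was then 1.03 and Igfals 1.51. Over all loci, the alternatives called 5 to 14 between genotypes re-fed (11 as reported), 8 to 57 fasted (18), 16 to 55 over both states (34), 2193 to 4438 after re-feeding in LMKO (4296), 1539 to 3614 in control (3610) and 2 to 16 in the interaction (4). With 2 libraries per group, intervals were wide for the variable genes.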
